A study of Mus musculus with 10 samples.

Results

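The genes of the IL-12, IL-18 and IL-27 axes were examined in B16 tumors, grown from a transplantable mouse melanoma line, of Bach2-deficient and wild-type genotype. The rule took every probe set (a group of short probes that together read 1 transcript) annotated to exactly 1 of 10 gene symbols: Il12a, Il12b, Il12rb1, Il12rb2, Il18, Il18r1, Il18rap, Il27, Il27ra and Stat4. Of these, 9 genes were measured by 11 probe sets, out of 18193 genes in all, and Il27 is not analysed here. Tumors labelled Bach2-deficient (5) were compared with wild-type tumors (5), all on the C57BL/6 background, and each tumor was dissected whole and mechanically dissociated before RNA extraction and hybridisation to an Affymetrix 3′ array. Bach2 encodes a transcriptional repressor of lymphocytes. The labels state neither the allele nor whether the host, the tumor cells or both lacked it, and they give neither age nor sex. The comparison asks how RNA levels in whole tumors differ between the genotypes, and in such bulk RNA more cells of a type and more RNA per cell cannot be told apart.

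IL-12 is a cytokine of myeloid cells made of a p35 chain, encoded by Il12a, and a p40 chain, encoded by Il12b. It binds a receptor of IL-12Rβ1 and IL-12Rβ2 on T and NK cells and acts through the transcription factor STAT4. IL-18 is made as a precursor that caspase-1 cleaves, binds a receptor of the chains encoded by Il18r1 and Il18rap, and signals through MyD88; together with IL-12 it is known as a strong inducer of interferon-γ. IL-27 is a heterodimer of the products of Il27 and Ebi3, and its receptor pairs the product of Il27ra with gp130.

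Features of the arrays other than these genes also differed between the groups. Genes are said to rise or fall at a limma adjusted p under 0.05, by which 16.3% of all genes rose and 12.4% fell. Mean T cell marker level (13 of 15 listed genes measured) ran from 8.73 to 10.04 in Bach2-deficient tumors and from 6.04 to 7.35 in wild-type tumors (log2), and all 13 markers rose. Mean macrophage and monocyte marker level (14 of 15 measured) ran from 10.35 to 11.14 in Bach2-deficient tumors and from 8.79 to 10.05 in wild type, and 11 markers rose. Of the other marker lists, 7 of 8 NK cell genes rose (list mean 8.17 to 9.45 in Bach2-deficient tumors, 5.41 to 6.58 in wild type), as did 10 of 12 dendritic cell genes (7.77 to 8.89 in Bach2-deficient tumors, 6.45 to 7.18 in wild type). Of the rest, 2 of 7 neutrophil genes rose, 0 of 8 B cell genes passed, and 4 of 12 melanocyte, 4 of 10 fibroblast and 3 of 4 red cell genes fell. Of 9 endothelial genes, 2 rose and 2 fell. Mean melanocyte marker level was 10.79 to 11.57 in Bach2-deficient tumors against 11.49 to 11.79 in wild type. The bacterial poly-A spike-in controls averaged 10.03 ± 0.11 for Bach2-deficient and 12.13 ± 0.18 for wild-type arrays (log2, mean ± SD of 5). Xist, transcribed in females, was above 11 on all 5 wild-type arrays but on only 1 Bach2-deficient array, replicate 2. The spike-in average ran from 9.93 to 10.16 on Bach2-deficient and from 11.94 to 12.37 on wild-type arrays. Without overlap, the spike-in difference cannot be told apart from genotype. Xist level departs from genotype only in Bach2-deficient replicate 2, so sex and genotype can hardly be told apart either. Bach2 itself read 5.89 ± 0.55 in Bach2-deficient and 6.96 ± 0.76 in wild-type tumors, a change of -1.07 (SE 0.38) that did not pass (limma adjusted p = 0.0551), except without wild-type replicate 2 (-1.33, adjusted p = 0.0195) and under 3 other alternatives. Whether its probe set lies within the deleted part is not known from the labels.

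Of the 9 measured genes, 7 rose in the Bach2-deficient tumors, 0 fell and 2, Il12a and Il12rb2, did not pass (limma adjusted p under 0.05 over all 18193 genes). Over all genes 28.7% passed by the same rule, with 16.3% higher and 12.4% lower, and the median change was -0.064 on the log2 scale, against 2.68 for the 9 members. The 5 Bach2-deficient arrays all lay above the 5 wild-type arrays for 6 members, where this held for 11.2% of all genes and the reverse for 7.67%. Taken one by one over all 45037 probe sets that are no controls, 9 of the 11 member probe sets rose, against 11.9% of all higher and 8.87% lower. The largest change was that of the signalling factor Stat4 and the smallest that of Il12a. With the mean melanocyte marker level as a covariate 1 member, Il12rb1, passed (1.89, limma adjusted p = 0.0455). Over all 18193 genes 82 rose with this covariate, against 2962 without it. The other 6 members that rose kept positive changes but missed the threshold. The change in the covariate fit was 2.79 for Il18r1 (limma adjusted p = 0.0694), 2.72 for Il18rap (adjusted p = 0.222) and 2.57 for Stat4 (adjusted p = 0.0685). It was 1.84 for Il27ra (limma adjusted p = 0.281), 1.18 for Il18 (adjusted p = 0.0906) and 0.91 for Il12b (adjusted p = 0.403). With Xist level (high or low) as a term, where the genotype change rests on Bach2-deficient replicate 2 alone, 5 passed.

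**Figure D1:**
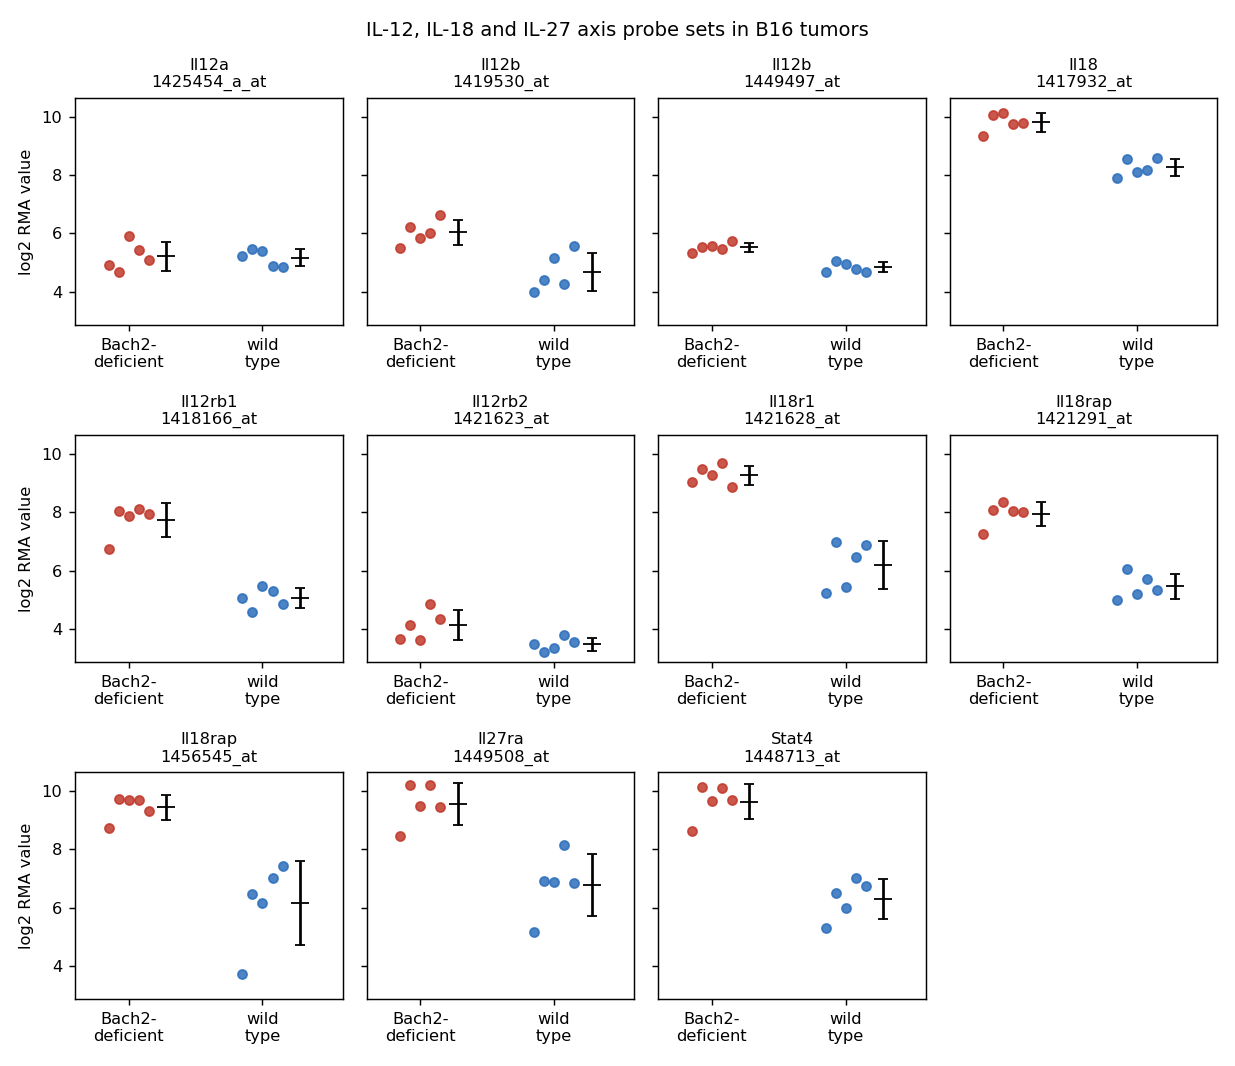
Log2 RMA values of the 11 probe sets of the measured genes, 1 point per tumor, for 5 Bach2-deficient (red, left) and 5 wild-type tumors (blue, right); black marks are the mean and bars the SD. Bach2-deficient tumors lie wholly above wild type for Il18, Il12rb1, Il18r1, both Il18rap probe sets, Il27ra, Stat4 and the 1449497_at probe set of Il12b. The points of Il12a, Il12rb2 and the brighter Il12b probe set, 1419530_at, overlap.

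Of the cytokine genes, Il18 rose with no overlap of the groups. It read 9.33, 10.05, 10.15, 9.75 and 9.77 in Bach2-deficient tumors and 7.92, 8.56, 8.11, 8.17 and 8.58 in wild-type tumors (log2, replicates 1 to 5). The lowest Bach2-deficient tumor was replicate 1 and the highest wild-type tumor replicate 5. The change was 1.54 (SE 0.18, 2.91-fold, limma adjusted p = 0.000429), with a 95% interval of 1.13 to 1.95.

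Of the IL-12 chains, Il12b rose and Il12a did not pass. Il12b, whose p40 chain is shared with IL-23, read 5.50, 6.23, 5.83, 6.00 and 6.65 in Bach2-deficient tumors and 3.99, 4.41, 5.16, 4.25 and 5.58 in wild-type tumors on its brighter probe set, 1419530_at. Bach2-deficient replicate 1 lay below wild-type replicate 5, the only crossing of the groups. The change was 1.36 (SE 0.32, limma adjusted p = 0.0103). The other probe set, 1449497_at, read 5.52 ± 0.15 in Bach2-deficient and 4.83 ± 0.17 in wild-type tumors (SD, n = 5 each), without overlap and with a smaller change of 0.69 (limma adjusted p = 0.00287 over all probe sets). Both wild-type means were below 4.98, under which the dimmest 30% of genes fall by their mean over all arrays, so the sizes of these rises are not exact and no fold is given. The call of Il12b was lost with the Xist term (1.55, limma adjusted p = 0.126).

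Il12a, which encodes the p35 chain, showed no detectable change. It read 4.93, 4.68, 5.93, 5.43 and 5.09 in Bach2-deficient tumors and 5.23, 5.48, 5.41, 4.87 and 4.84 in wild-type tumors. Bach2-deficient tumors held both the lowest value, replicate 2, and the highest, replicate 3. The change of 0.044 (limma adjusted p = 0.903) had a 95% interval of -0.47 to 0.56, and its sign depended on the array left out (-0.14 to 0.18). The per-array difference Il12b minus Il12a was 1.32 higher in Bach2-deficient tumors (0.83 ± 0.71) than in wild type (-0.49 ± 0.79; SD, n = 5 each), with an exact permutation p of 0.0476 and an adjusted p of 0.0714 over the 3 chain pairs tested, so an unequal change of the chains did not pass. Without wild-type replicate 5 it did (1.63, exact permutation, adjusted p = 0.0238). Several Il12a values and the wild-type mean of Il12b lay under 4.98. Readings that dim need not track their transcripts, so no unequal change of the chains is drawn under any setting.

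Of the IL-12 receptor chains, Il12rb1 rose and Il12rb2 did not pass. Il12rb1, whose product IL-12Rβ1 also serves the IL-23 receptor, read 6.73, 8.05, 7.87, 8.12 and 7.94 in Bach2-deficient tumors and 5.06, 4.58, 5.48, 5.31 and 4.87 in wild-type tumors. Replicate 1 stood below the other Bach2-deficient tumors but above every wild-type tumor. The change was 2.68 (SE 0.27, 6.42-fold, limma adjusted p = 0.000243). The wild-type values 4.58 and 4.87 lay under 4.98, so this fold is not exact.

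Il12rb2, which encodes the signal-carrying chain that binds STAT4, read 3.66, 4.15, 3.61, 4.87 and 4.34 in Bach2-deficient tumors and 3.46, 3.21, 3.34, 3.77 and 3.55 in wild-type tumors. Bach2-deficient replicates 1 and 3 lay within the wild-type range and replicates 2, 4 and 5 above it. All 10 values lay under 4.98, and such dim probe sets need not track their transcript. The change of 0.66 (SE 0.23) narrowly failed the test (limma adjusted p = 0.0546) but passed under 7 of 18 alternatives, among them those without Bach2-deficient replicate 1 (0.78, adjusted p = 0.0287) or 3 (0.79, adjusted p = 0.0332) or wild-type replicate 4 (0.74, adjusted p = 0.0484). With its readings this low, its change cannot be set against that of Il12rb1.

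Both chains of the IL-18 receptor rose. Il18r1, which encodes the ligand-binding chain, read 9.04, 9.47, 9.29, 9.68 and 8.88 in Bach2-deficient tumors and 5.22, 6.99, 5.42, 6.47 and 6.87 in wild-type tumors. The wild-type tumors spread widely, with replicates 1 and 3 lowest, yet the lowest Bach2-deficient tumor lay well above the highest wild-type one. The change was 3.08 (SE 0.35, 8.45-fold, limma adjusted p = 0.000365).

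Il18rap, which encodes the accessory chain, read 8.73, 9.73, 9.70, 9.71 and 9.33 in Bach2-deficient tumors and 3.72, 6.46, 6.17, 7.03 and 7.42 in wild-type tumors on probe set 1456545_at. Wild-type replicate 1 was far below the rest of its group, and the groups did not overlap. The change was 3.28 (SE 0.60, limma adjusted p = 0.00301), and it was 2.67 without wild-type replicate 1. The Xist term ended the call (3.57, limma adjusted p = 0.0733). The dimmer probe set 1421291_at changed by 2.49 (5.62-fold, limma adjusted p = 0.000334 over all probe sets), at 7.94 ± 0.40 in Bach2-deficient and 5.45 ± 0.42 in wild-type tumors (SD, n = 5 each). The per-array difference Il18rap minus Il18r1 differed by 0.20 between the groups (exact permutation p = 0.722), and its sign turned with the mean of the Il18rap probe sets (-0.19) and without wild-type replicate 1 (-0.17).

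Il18r1 and Il18rap are neighbours on mouse chromosome 1 in RefSeq's gene order (GRCm38.p6). The next measured genes on either side, taken for their position after the members' values had been seen, did not pass. Slc9a4, a sodium-proton exchanger gene that follows Il18rap, read 3.17 ± 0.18 in Bach2-deficient and 3.19 ± 0.18 in wild-type tumors (change -0.022, limma adjusted p = 0.906). Both Slc9a4 means lay under 4.98, where readings need not track the transcript, so they do not show that Slc9a4 stayed the same. Il1rl2, an IL-1 receptor family gene on the other side, read 6.81 ± 0.86 in Bach2-deficient and 5.37 ± 0.99 in wild-type tumors (change 1.44, limma adjusted p = 0.0616). The gene between Il1rl2 and Il18r1 is not analysed here.

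Il27ra and Stat4, which carry IL-27 and IL-12 signals into lymphocytes, rose as well. Il27ra, the IL-27-specific receptor chain, read 8.45, 10.22, 9.48, 10.22 and 9.46 in Bach2-deficient tumors and 5.16, 6.92, 6.87, 8.14 and 6.86 in wild-type tumors. The lowest Bach2-deficient tumor, replicate 1, lay close above the highest wild-type tumor, replicate 4. The change was 2.78 (SE 0.51, 6.86-fold, limma adjusted p = 0.00312).

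Stat4 read 8.63, 10.14, 9.65, 10.10 and 9.69 in Bach2-deficient tumors and 5.29, 6.51, 5.99, 7.02 and 6.75 in wild-type tumors. Replicate 1 was the lowest tumor of each group and the groups stood clear of each other. The change was 3.33 (SE 0.37, 10.1-fold, limma adjusted p = 0.000321).

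Promoter windows from RefSeq (GRCm38.p6, 250 bases before to 50 after an annotated start) were on hand for 7 of the 10 genes, in 11 windows. They were searched on both strands for the STAT motif GAS (TTCNNNGAA), for the interferon-response core ISRE (GAAANNGAA) and for the AP-1-like motif TGANTCA, the kind of site to which BACH factors bind. GAS was in windows of 2 members and in 8.30% of the 32851 windows of all genes, ISRE in 1 member window and in 8.56% of all, and the AP-1-like motif in 0 member windows and in 7.81% of all. A match describes letters and not a bound site. The 3 windows with a match are shown because they belong to receptor and STAT genes of the axis, 1 of them (Il12rb2) a gene that did not pass, with the matched bases in capitals. They lie at chr6:67376139-67376438 (minus strand) for Il12rb2, at chr1:40465756-40466055 (plus strand) for the most downstream of 3 Il18r1 windows, and at chr1:52007990-52008289 (plus strand) for the downstream of 2 Stat4 windows.
Il12rb2: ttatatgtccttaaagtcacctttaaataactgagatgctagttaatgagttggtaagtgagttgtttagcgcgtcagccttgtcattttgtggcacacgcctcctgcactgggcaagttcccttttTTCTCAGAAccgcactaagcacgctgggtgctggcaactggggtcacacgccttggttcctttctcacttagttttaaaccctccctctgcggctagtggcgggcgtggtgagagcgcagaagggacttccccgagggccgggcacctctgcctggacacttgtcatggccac
Il18r1: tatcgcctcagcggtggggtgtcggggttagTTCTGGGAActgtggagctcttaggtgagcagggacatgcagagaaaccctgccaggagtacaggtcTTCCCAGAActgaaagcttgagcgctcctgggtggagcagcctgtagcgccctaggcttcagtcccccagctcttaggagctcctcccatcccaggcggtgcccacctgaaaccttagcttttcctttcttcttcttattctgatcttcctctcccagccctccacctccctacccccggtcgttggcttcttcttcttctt
Stat4: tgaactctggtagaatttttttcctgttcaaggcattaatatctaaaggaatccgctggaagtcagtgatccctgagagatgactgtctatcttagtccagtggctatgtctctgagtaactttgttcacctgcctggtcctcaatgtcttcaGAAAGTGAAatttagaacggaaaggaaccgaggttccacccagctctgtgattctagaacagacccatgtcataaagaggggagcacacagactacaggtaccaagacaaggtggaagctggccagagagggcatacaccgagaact

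Members were next set against markers of a cell type known to express them, on the same array. Relative to the mean of the T cell markers, Stat4 was 0.19 ± 0.23 in Bach2-deficient and -0.50 ± 0.18 in wild-type tumors (log2, SD, n = 5 each), a difference of 0.69 without overlap (exact permutation p = 0.00794, the smallest 5 against 5 arrays allow; adjusted p = 0.0357 over the 9 members). Against NK cell markers in place of T cell markers this difference was 0.39 and did not pass (exact permutation, adjusted p = 0.429). Single T cell markers changed by 1.10 to 3.62, a range that holds the 3.33 of Stat4, so Stat4 exceeded their mean and not each of them. No comparison with markers is drawn for Il12rb2, since a dim probe set falls relative to markers that rise, whatever its transcript does. Its test, with the same exact p as that of Stat4, is still counted in the adjustment over the 9 members. The adjusted p of Stat4, and that of Il12a below, depend on it, so neither is read as a pass.

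The remaining receptor genes did not differ detectably from the T cell markers in their change. The difference was 0.044 for Il12rb1 (exact permutation, adjusted p = 0.952), 0.44 for Il18r1 (adjusted p = 0.250), 0.64 for Il18rap (adjusted p = 0.314) and 0.14 for Il27ra (adjusted p = 0.867). The signs for Il12rb1 (-0.26) and Il27ra (-0.16) turned against NK cell markers. Each probe set has its own affinity, so none of these values is an amount per cell.

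Among the cytokine genes, set against macrophage and monocyte markers, Il12a was -5.70 ± 0.52 in Bach2-deficient and -4.42 ± 0.70 in wild-type tumors, a difference of -1.28 (exact permutation p = 0.0159, adjusted p = 0.0476). With dendritic cell markers it was -1.51 (adjusted p = 0.107). Il12a read below 4.98 in 4 of the 10 tumors, and readings that dim need not track the transcript. Its own change was 0.044 while the marker mean rose by 1.32, so no fall of Il12a is drawn from this difference. Il18 differed by 0.22 (adjusted p = 0.369) and Il12b by 0.038 (adjusted p = 0.952) from the macrophage and monocyte markers, and both signs turned with dendritic cell markers (-0.0078 and -0.19). The adjusted p of the Stat4 difference, and likewise that of Il12a, was above 0.05 in 8 of the 10 tests with 1 array left out, where 5 against 4 arrays allow no exact p below 0.0159.

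**Figure D2:**
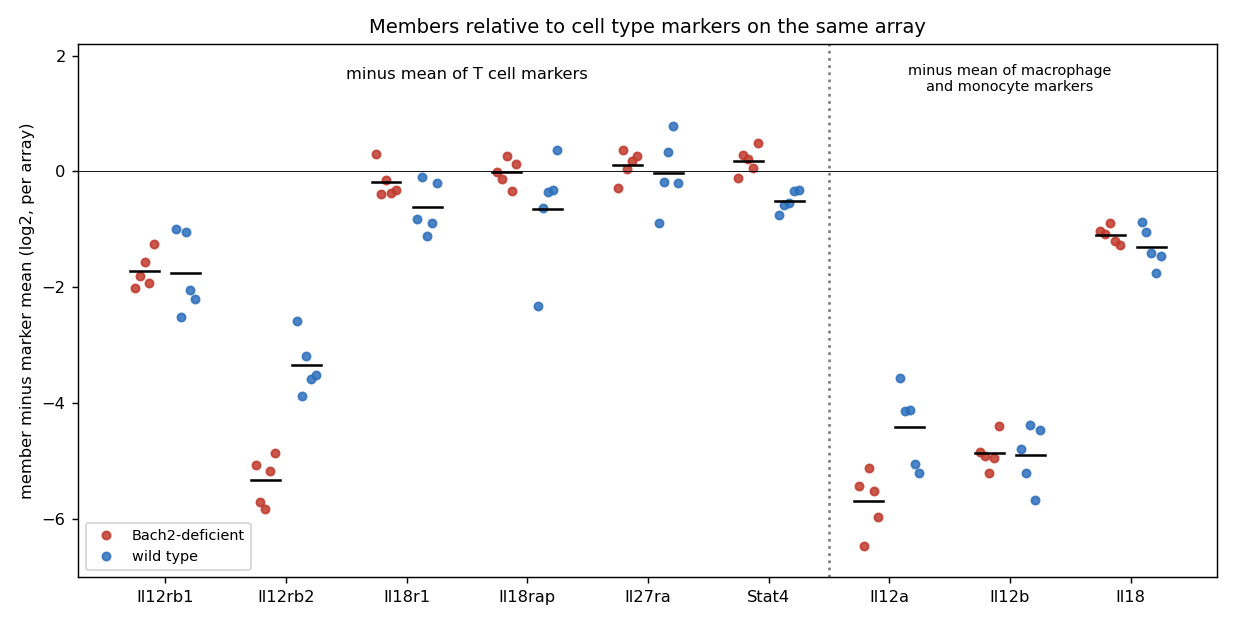
Each member's log2 value minus the mean log2 value of T cell markers (left of the dotted line) or of macrophage and monocyte markers (right of it), 1 point per array, Bach2-deficient (red) left of wild type (blue); black lines are group means. Stat4 is higher in Bach2-deficient tumors with no overlap, and the groups of 6 other members overlap. The points of Il12a lie lower with overlap, where the markers rose and Il12a did not. No comparison is drawn from them or from those of Il12rb2, which was dim on all 10 arrays.

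Replicate 1 of each genotype stood low for most of the 7 members that rose. Bach2-deficient replicate 1 was the lowest of its group for 6 of the 7, with Il18r1 the exception. It also had the lowest T cell marker mean of its group (8.73) and the highest melanocyte marker mean (11.57). Wild-type replicate 1 was likewise the lowest of its group for 6 of the 7, with Il12rb1 the exception, and had the lowest T cell marker mean of all 10 tumors (6.04). The part of these marker levels in the members' values was not tested. Members that rose numbered 7 or 8 with any 1 array left out.

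**Figure D3:**
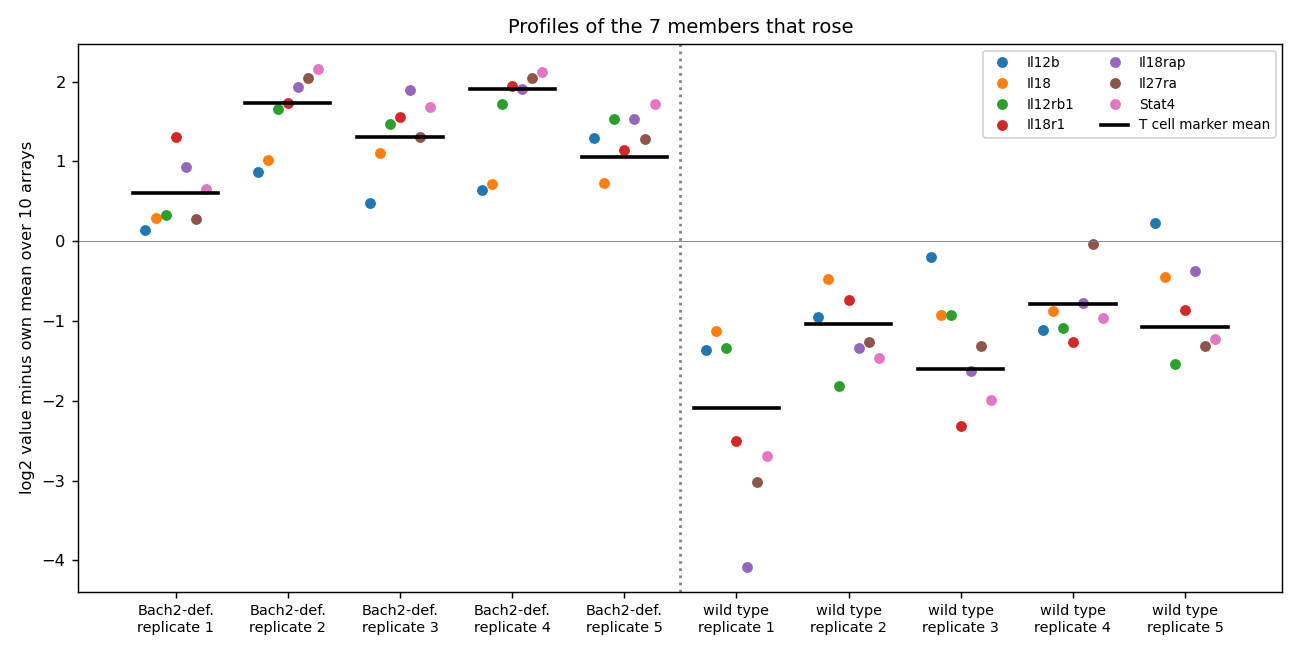
Log2 values of the 7 members that rose, each minus its own mean over the 10 arrays (points, 1 colour per gene), by tumor, with the T cell marker mean treated the same way (black bars). In Bach2-deficient replicate 1 and wild-type replicate 1 most points sit lowest within their group, as do the T cell markers.

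By root mean square distance between centred profiles over the 10 arrays, the closest genes outside the axis differed from member to member. Stat4 was closest to Selplg, a selectin ligand gene (0.21), and Itgal, the integrin αL gene (0.21), and Il18r1 to the GTPase gene Igtp (0.22) and the chemokine gene Ccl5 (0.25). Il18 was closest to Junb, an AP-1 factor gene (0.14), and the MHC class I gene H2-D1 (0.15). Il12rb1 was closest to Filip1l (0.16) and the hexokinase gene Hk3 (0.23), and Il12b to Arg1, encoding arginase (0.20), and Fam222b (0.27). Il27ra was closest to Slfn1 (0.34) and Sv2c (0.34), and Il18rap to Hsd11b1 (0.32) and Oasl1 (0.36). All 14 of these genes were higher in Bach2-deficient tumors, by 1.04 to 3.37, a direction the choice fixes.

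Other genes of the same pathways were taken from lists. Of 9 further IL-12 family genes, 7 were measured, 4 rose and 0 fell (median change 1.25, against -0.064 over all genes and 16.3% of all genes rising). Ebi3, the partner chain of IL-27, read 7.75, 9.32, 9.41, 9.05 and 8.89 in Bach2-deficient tumors and 5.62, 7.10, 6.46, 7.77 and 7.29 in wild-type tumors. Only Bach2-deficient replicate 1 reached down to the highest wild-type tumor. It rose by 2.04 (SE 0.42, 4.10-fold, limma adjusted p = 0.00589), a call lost with the Xist term (2.48, adjusted p = 0.0741). On their brightest probe sets the receptor-associated kinase genes Jak1 (1.56), Tyk2 (1.42) and Jak2 (1.25) also rose, all without overlap. Tyk2 gave 0.48 as the mean of its 2 probe sets (limma adjusted p = 0.0164), a mean that requires the dimmer one to have changed downward. Its probe sets thus disagree in direction, and the rise of Tyk2 rests on the brighter one alone. Il6st, which encodes gp130, changed by 0.44 (limma adjusted p = 0.203) and Stat3, a STAT of IL-23 and IL-27 signalling, by 0.078 (adjusted p = 0.839; -0.15 without wild-type replicate 4). Both passed as the mean of their 4 probe sets (0.74 for each, limma adjusted p = 0.0344 and 0.00146), so their calls depended on the probe sets used.

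Il23a, the p19 chain that joins p40 to form IL-23, read 4.98, 4.82, 8.68, 4.98 and 4.92 in Bach2-deficient tumors and 4.89, 5.05, 5.34, 4.93 and 5.56 in wild-type tumors. A single tumor, Bach2-deficient replicate 3, stood far above the other 9. Those 9 values (4.82 to 5.56) lay near or under 4.98, where readings need not track the transcript. Bach2-deficient replicate 3 was also the highest for Il12a and had the highest neutrophil marker mean of all tumors (10.07). The change of Il23a was 0.52 (limma adjusted p = 0.584), and -0.23 without that array.

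Of the 12 genes of the IL-18 pathway list, 11 were measured, 10 rose and 0 fell (median 1.81), where 16.3% of all genes rose. Those that rose include Il1rap (1.25), Myd88, Irak2, Traf6, Nlrp3 and Pycard, none of them particular to IL-18. Il18bp, the secreted decoy that binds IL-18, read 9.44, 10.96, 10.89, 11.03 and 10.74 in Bach2-deficient tumors and 6.36, 7.86, 6.95, 7.46 and 8.21 in wild-type tumors. The groups did not overlap. It rose by 3.24 (SE 0.40, 9.47-fold, limma adjusted p = 0.000465), beside 1.54 for Il18 itself. Casp1, the enzyme that matures IL-18, rose by 2.21 (SE 0.22, 4.64-fold), the related inflammatory caspase gene Casp4 by 2.23 and Gsdmd, encoding the pore protein gasdermin D, by 2.02. Irak1, a receptor-associated kinase gene, changed by -0.23 (limma adjusted p = 0.257). Of the list, 5 genes passed with the Xist term and 1, Casp4, with the melanocyte covariate.

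Of 15 genes known to respond to these cytokines, all measured, 12 rose and 0 fell (median 2.07), where 16.3% of all genes rose. Ifng, the cytokine the axis is known for inducing, read 10.04, 11.02, 11.10, 11.28 and 10.54 in Bach2-deficient tumors and 4.00, 6.72, 3.46, 6.23 and 4.34 in wild-type tumors. The groups lay far apart, and the wild-type mean of 4.95 lay in the dimmest 30%, so the size of its change of 5.84 (SE 0.60, limma adjusted p = 0.000245) is not exact. The transcription factor genes Eomes, Irf1 and Irf8 rose by 3.67, 3.24 and 2.94, with the wild-type mean of Eomes (4.88) also among the dim values. Eomes is counted among the NK cell markers too. The stress-response genes Gadd45b (0.85, limma adjusted p = 0.0667) and Gadd45g (0.42, adjusted p = 0.278) and Socs1, a feedback inhibitor of cytokine receptors (0.37, adjusted p = 0.142), did not pass. Without wild-type replicate 5 both Gadd45 genes did (1.00 and 0.66, adjusted p = 0.0431 and 0.0394), and without Bach2-deficient replicate 1 Gadd45b did (1.02, adjusted p = 0.0328). Gadd45b also passed as the mean of its 3 probe sets (1.26, limma adjusted p = 0.0118) and with array weights (0.92, adjusted p = 0.0379). Of the list, 6 genes passed with the Xist term and 2, Eomes and Irf1, with the melanocyte covariate. Many of these genes also respond to other signals.

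**Figure D4:**
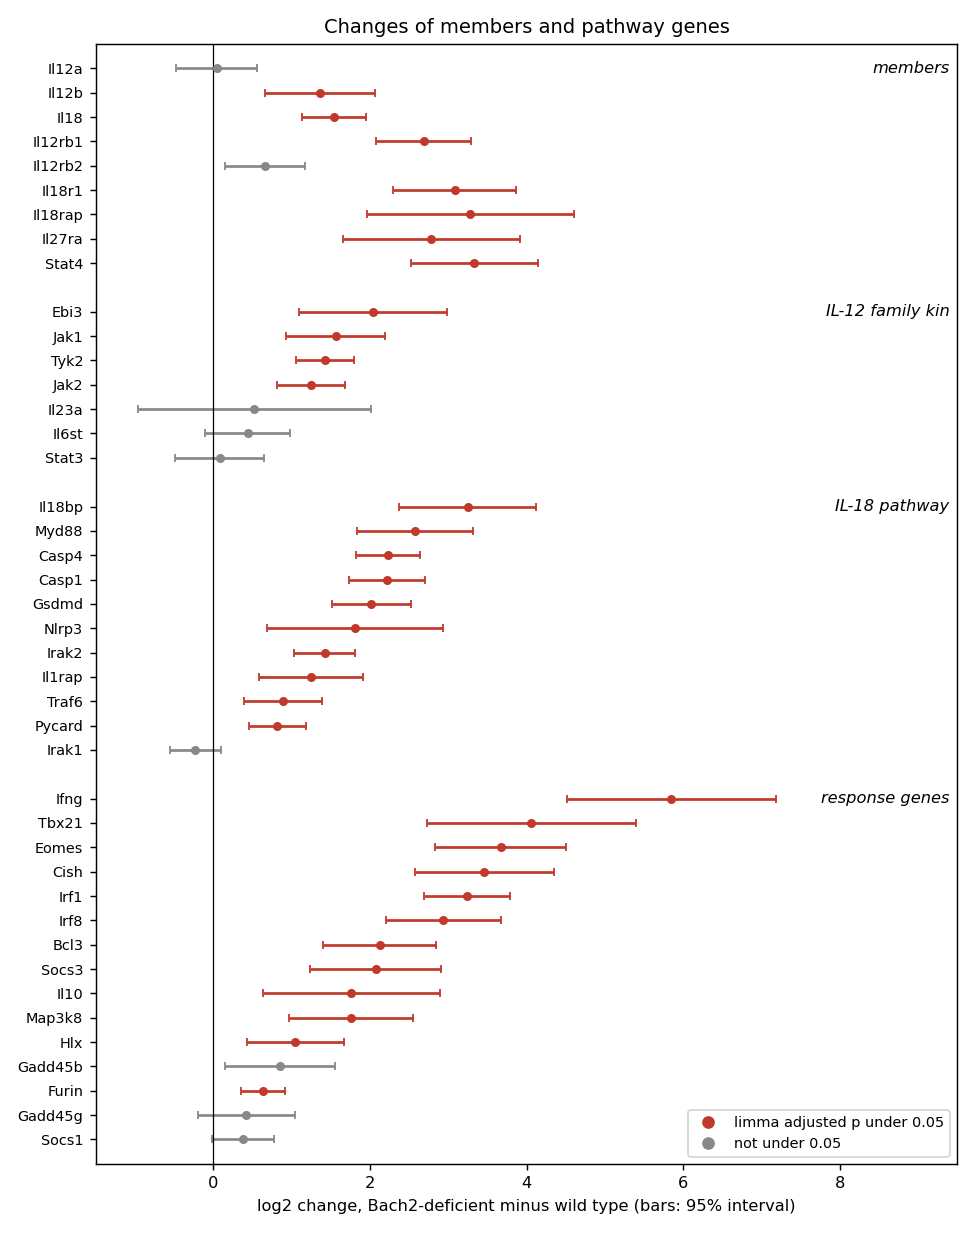
Log2 change, Bach2-deficient minus wild type, of the 9 measured members and of the 33 measured genes of the other pathway lists, with 95% intervals; red points passed at a limma adjusted p under 0.05 and grey ones did not. Of 42 points, 33 are red and all of those lie above 0, from Furin (0.63) to Ifng (5.84).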

How the data were processed

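RNA of 10 whole B16 tumors was read on 1-colour arrays. The table deposited by the authors holds log2 values, per the submitters' processing notes made with Partek and RMA, a method that corrects background, quantile-normalizes and summarises each probe set; no version of either, and no genome build, is given in the sources used here. The scale was read from the values (1.99 to 14.4). They were used as deposited, so neither background correction nor detection could be redone, no slide or scan was on record, and precision is limited by there being 5 arrays a group.

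Of 45101 probe sets, 64 were controls, 34945 carried 1 gene symbol in the platform annotation, 932 several and 9160 none. A gene was represented by its brightest single-symbol probe set over all arrays (18193 genes). Groups and replicate numbers came from the titles, which do not say that tumors came from separate mice, so the spread behind each p-value may be technical. The genotype fit used lmFit and eBayes of limma 3.58.1 (R 4.3.3; 2-sided, Benjamini-Hochberg over all genes, or over 45037 probe sets for single probe sets), after a check on simulated data. Per-array differences were tested by 2-sided exact permutation of the 252 regroupings (SciPy 1.17.1), adjusted within families of 9 and 3. Fold is 2 to the power of the change.

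The members and gene lists were chosen with earlier results of these data known. Named were all measured members, Bach2 and Ifng, per pathway list the 4 called genes of smallest adjusted p and up to 4 uncalled ones, and per risen member the 2 nearest profiles; neighbouring genes on the chromosome were added after values were seen. Alternatives changed the probe set, filter, normalization, variance model, weights, block, covariate, Xist term (split at a log2 value of 9) or left out 1 array.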

Additional observations from a re-analysis of the deposited data

Results flagged for a closer look

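Of 62 groups of 5 tumors examined, 6 held 1 value whose gap to its nearest neighbour took more than 0.71 of the group's range; chance alone would give about 5% of groups such a value. The value of Bach2-deficient replicate 1 was the lowest of its group by such a gap for Il12rb1 (6.73, next 7.87), Jak2 (11.33, next 12.03), Casp1 (11.19, next 11.57), Gsdmd (8.55, next 9.36) and Il18bp (9.44, next 10.74). This tumor had the lowest T cell marker mean and the highest melanocyte marker mean of its group, and the part of these in the 5 values was not tested. Il23a in Bach2-deficient replicate 3 was the highest of its group (8.68, next 4.98).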

How the results depend on the processing

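No alternative turned a call the other way, and no member or pathway gene was called lower under any. With the melanocyte covariate, 1 member gene, 0 member probe sets, 0 further IL-12 family, 1 IL-18 pathway and 2 response genes rose; with the Xist term 5 member probe sets, 5 IL-18 pathway and 6 response genes rose, beside 5 member genes. The other counts stayed within 1.5 times the reported ones, with 7 or 8 member genes and 9 or 10 member probe sets when 1 array was left out. Deviations from the group means of same-numbered tumors correlated across genes at 0.32, 0.0062, 0.22, 0.089 and 0.063 for numbers 1 to 5, and only those of numbers 1 and 3 correlated best with their own number, so the numbers were not taken to pair tumors. With the replicate block, 8 member genes and 10 member probe sets rose, the added gene being Il12rb2 (0.66, limma adjusted p = 0.0284), and Gadd45b passed too (0.85, adjusted p = 0.0283). The paired sign-flip test of per-array differences cannot go below an exact p of 0.0625, so none passed there (Il12b minus Il12a, adjusted p = 0.0938). Genes rising over the whole table numbered 82 with the covariate and 1030 with the Xist term, against 2962. Uncalled values near 0 changed sign. Il12a gave -0.49 with the Xist term, -0.19 with the covariate and -0.14 to 0.18 with 1 array left out. Il23a gave -0.33 with the Xist term and -0.23 to 0.74 with 1 array left out. Stat3 gave -0.056 after a second quantile normalization, -0.045 with the Xist term, -0.23 with the covariate and -0.15 to 0.25 with 1 array left out. Relative to markers, Il12b turned with the mean of its probe sets (-0.41) and with dendritic cell markers (-0.19), Il18 with dendritic cell markers (-0.0078) and Il12rb1 and Il27ra with NK cell markers (-0.26 and -0.16). With 1 array left out these ranged from -0.14 to 0.24 (Il12rb1), -0.074 to 0.34 (Il27ra) and -0.16 to 0.17 (Il12b). Il18rap minus Il18r1 turned with the mean of probe sets (-0.19) and ranged from -0.17 to 0.40. Il12b minus Il12a passed with the mean of probe sets (0.98, exact permutation, adjusted p = 0.0238), a difference that rests in part on dim readings. The cause of these shifts was not tested. With no detection calls, dim probe sets (Il12rb2, Il12a, wild-type Il12b) limit what a small or absent change can show.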
